A study of Mus musculus with 12 samples.

Results

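The expression of 10 feedback and target genes of NF-kB was followed through sorted cells of the mouse prostate: Nfkbia, Nfkbiz, Tnfaip3, Nfkb1, Nfkb2, Relb, Bcl3, Icam1, Cxcl1 and Cxcl2. They are 10 of the 48795 gene identifiers in the count table, matched by symbol, and all 10 passed the filter on low counts. The list was chosen by measured values of these libraries: the counts of Nfkbia differed between LY6D+ and LY6D- cells by an amount that changed with the level of SCA1. Every LY6D difference of these genes is therefore given as a description with no test. The study took prostates of wild type C57BL/6 mice aged 6 to 8 weeks and excluded cells that carried CD31 (endothelium), CD45 (leukocytes) or Ter119 (red cells). The remaining cells, described by the submitters as luminal, were sorted by surface LY6D (positive or negative) and by surface SCA1, the product of Ly6a (high, intermediate or low; SCA1high, SCA1int and SCA1low). Each of the 6 populations had 2 libraries, made from 10 to 20 ng of total RNA, and none received a treatment. The series calls the pair biological replicates without stating if they are separate mice or pools, so a p-value measures the spread between these libraries.

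NF-kB is a family of transcription factors that waits in the cytoplasm, bound by inhibitors of the IkappaB family. Cytokines, microbial products and cell damage activate a kinase complex that marks the inhibitor for destruction, and the freed dimers enter the nucleus. Among the first genes they switch on are their own inhibitors, which close a negative feedback loop, followed by adhesion molecules and neutrophil-attracting chemokines. In epithelia, the transcripts of these genes can rise quickly when tissue is dissociated, so their level in sorted cells is a reading of the cells as collected.

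The promoters are shown because a kappaB site, the sequence NF-kB dimers bind, is what a direct feedback or target gene can carry. In RefSeq promoter windows (GRCm38.p6, the 250 bases before the transcription start), exact matches to the kappaB consensus GGGRNNYYCC were searched on both strands. R stands for A or G, Y for C or T and N for any base, and overlapping matches were merged. Windows were present for 7 of the 10 genes and not for Nfkbiz, Nfkb1 or Relb. A match stood in 5 of the 7 genes (71.4%), against 8.23% of 27025 genes with a window. The windows of Icam1 and Bcl3 held no exact match. Looser forms were not counted: the Icam1 window held tggaaattcc, which differs from the consensus only in its first base. The windows of Nfkbia (chr12:55492648-55492897, minus strand), Cxcl1 (chr5:90890995-90891244, plus strand) and Cxcl2 (chr5:90903649-90903898, plus strand) read as follows, 5′ to 3′ toward the start, with the matched bases in capitals.
Nfkbia: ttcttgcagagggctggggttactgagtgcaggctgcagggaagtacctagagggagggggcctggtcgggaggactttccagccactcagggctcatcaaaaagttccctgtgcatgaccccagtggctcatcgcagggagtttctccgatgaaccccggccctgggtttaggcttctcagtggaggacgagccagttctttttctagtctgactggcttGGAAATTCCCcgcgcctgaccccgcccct
Cxcl1: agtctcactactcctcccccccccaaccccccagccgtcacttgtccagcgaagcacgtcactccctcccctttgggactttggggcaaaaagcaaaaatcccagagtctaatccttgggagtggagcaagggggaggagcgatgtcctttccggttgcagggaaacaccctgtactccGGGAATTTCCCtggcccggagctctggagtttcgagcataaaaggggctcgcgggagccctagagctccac
Cxcl2: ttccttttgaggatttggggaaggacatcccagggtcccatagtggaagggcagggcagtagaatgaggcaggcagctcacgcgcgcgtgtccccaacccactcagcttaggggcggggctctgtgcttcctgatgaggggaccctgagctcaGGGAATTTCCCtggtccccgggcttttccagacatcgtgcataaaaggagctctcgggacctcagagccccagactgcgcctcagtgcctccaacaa
The match in Nfkbia lay 29 to 20 bases before the start. Both chemokine genes, neighbours on chromosome 5, carried the same 11 bases, 71 to 61 before the start of Cxcl1 and 97 to 87 before that of Cxcl2. The first windows of Tnfaip3 and Nfkb2 each held a pair of separate matches, a pattern seen in 0.4% of 32851 windows. They are GGGACACCCC and GGAAATCCCC in Tnfaip3, and GGGAATTCCCC and GGGGCTTTCC in Nfkb2. The second window of Tnfaip3 held 0 matches. Of the 250 bases of these first windows, 247 in Tnfaip3 and all 250 in Nfkb2 fell inside the gene coordinates given below, because the RefSeq start lies within them. A match is a stretch of letters and was not measured as a bound site.

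Libraries held 8436185 to 20022077 counts. Ly6d itself was at 37.0 to 397 CPM (counts scaled to library size with TMM factors) in the LY6D+ libraries and at 0.433 to 3.86 in the LY6D- libraries. Ly6a was at 3.37 to 68.8 CPM at SCA1low, 44.9 to 148 at SCA1int and 181 to 593 at SCA1high. The summed CPM of 8 luminal markers ran from 42630 to 83440 in LY6D- SCA1low cells but from 1308 to 1406 in LY6D+ SCA1high cells, where 7 basal markers summed to 3835 to 4203. Most of the luminal sum in LY6D- SCA1low cells was Spink1 (71400 and 34790 CPM in replicates 1 and 2) and Pbsn (10660 and 7158 CPM). Between these populations Krt8 differed less (266 and 148 against 131 and 120 CPM), and Epcam and Krt19 overlapped. In LY6D- SCA1high cells, 12 endothelial markers summed to 3664 to 4206, beside 2510 to 4419 for the luminal list, although CD31+ cells had been sorted out. Genes nearly specific to 1 library were also found in others, at a low share of their level. The median share was 10.5% for 187 genes of LY6D- SCA1high replicate 1 in LY6D- SCA1low replicate 2, 6.91% for genes of LY6D+ SCA1high replicate 2 in LY6D+ SCA1int replicate 2, and at most 4.49% for any other pair. In these bulk samples, fewer cells of a type and less RNA per cell cannot be told apart.

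The gene with the most signal was Nfkbia, which encodes IkappaB-alpha, the main inhibitor that NF-kB induces against itself (ENSMUSG00000021025, GRCm38 chromosome 12, 55489410 to 55492647, minus strand, protein coding). In replicates 1 and 2 it stood at 549 and 715 CPM in LY6D- SCA1low, 1328 and 1559 in LY6D- SCA1int, and 3572 and 3679 in LY6D- SCA1high cells. In LY6D+ cells it stood at 992 and 1422 at SCA1low, 1265 and 1129 at SCA1int, and 1117 and 1359 at SCA1high. The LY6D- populations thus climbed with SCA1 with no overlap between neighbouring levels, while the LY6D+ libraries overlapped at all levels. In order of the mean, LY6D- SCA1high (3626 ± 76.1, SD, n = 2) stood apart at the top and LY6D- SCA1low (632 ± 118, SD, n = 2) apart at the bottom. The other 4 populations, with means from 1197 to 1443 CPM, overlapped their neighbours. With 5106 to 86861 counts a library, counting error was small beside the spread between libraries.

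**Figure D1:**
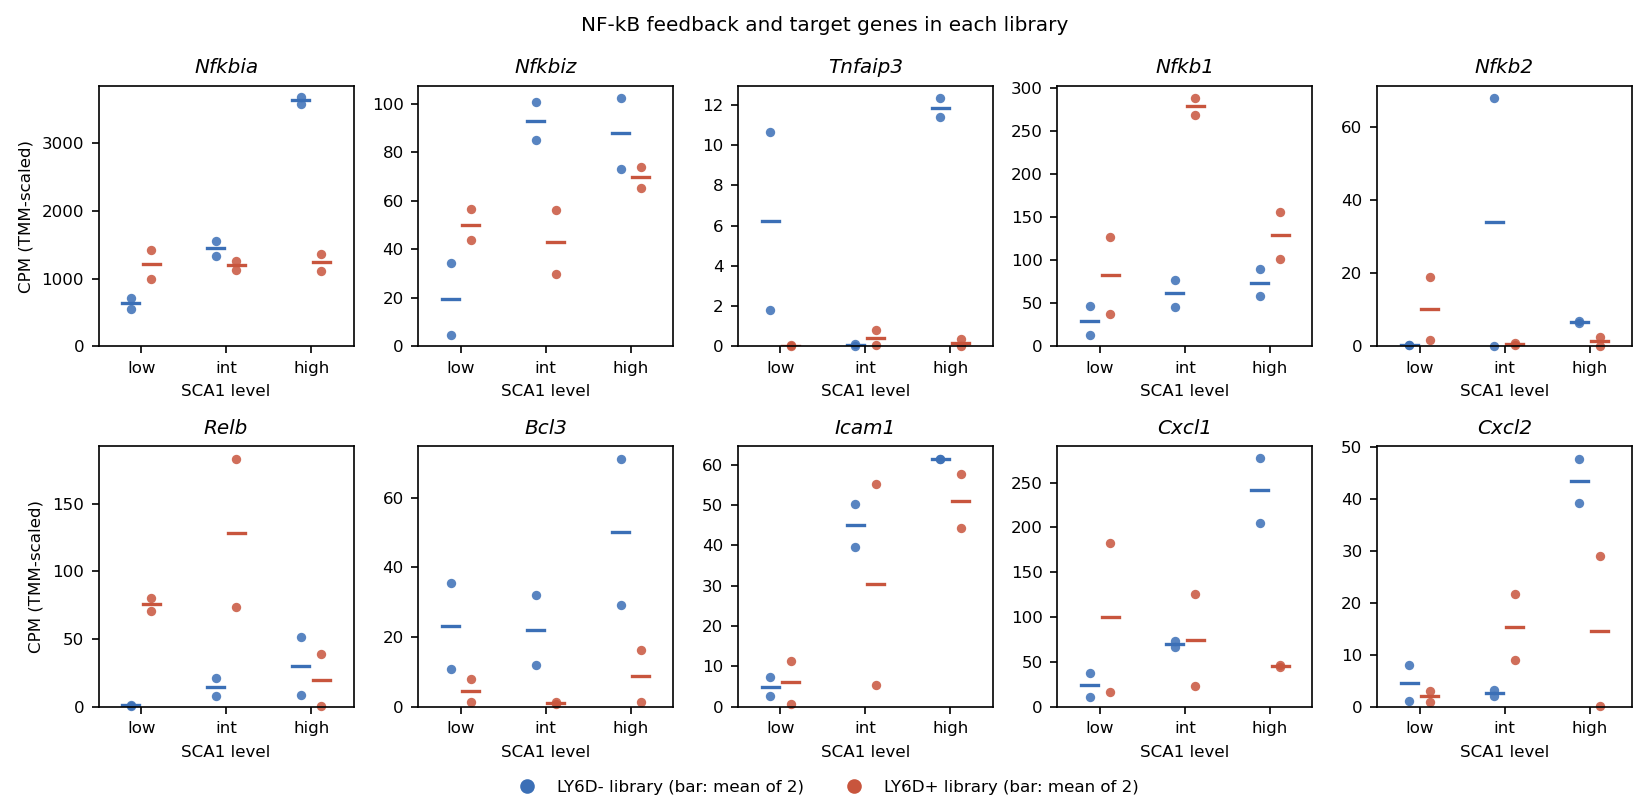
CPM of the 10 genes (vertical axes, 1 scale a gene) in each of the 12 libraries by SCA1 level, with LY6D- libraries in blue, LY6D+ libraries in red and a bar for the mean of 2. Nfkbia in LY6D- cells climbs from 632 to 3626 CPM while the LY6D+ means stay between 1197 and 1238, and in several less abundant genes the libraries of 1 population lie far apart.

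The other regulators that feed back on the pathway were far less abundant. Nfkbiz (chromosome 16, 55811375 to 55838899, minus strand), which encodes the nuclear inhibitor-like cofactor IkappaB-zeta, was at 4.62 and 34.5 CPM in LY6D- SCA1low, 85.2 and 101 in LY6D- SCA1int, and 102 and 73.1 in LY6D- SCA1high cells. In LY6D+ cells it was at 43.9 and 56.5, 29.7 and 56.1, and 73.9 and 65.4 CPM at the same levels of SCA1. LY6D- SCA1low cells were lowest, and SCA1high exceeded SCA1low without overlap in either LY6D state. Tnfaip3 (chromosome 10, 19000910 to 19015657, minus strand), which encodes the ubiquitin-editing enzyme A20 that shuts off signalling to NF-kB, was near the limit of detection. It had 99 and 21 counts in LY6D- SCA1low, 2 and 0 in LY6D- SCA1int, and 146 and 291 in LY6D- SCA1high cells, and from 0 to 15 counts in the 6 LY6D+ libraries. Fewer than 10 counts were found in 7 of 12 libraries, so its folds between LY6D states are not given. Bcl3 (chromosome 7, 19808462 to 19822770, minus strand), an IkappaB-like partner of the p50 and p52 subunits, was at 35.4 and 10.7, 32.0 and 12, and 71.2 and 29.1 CPM in LY6D- cells from SCA1low to SCA1high. In LY6D+ cells its values were 7.89 and 1.24, 0.701 and 1.32, and 16.2 and 1.29 CPM. At each SCA1 level both LY6D+ libraries lay below both LY6D- libraries.

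Among the genes for NF-kB subunits, Nfkb1 (chromosome 3, 135584655 to 135691547, minus strand), which encodes p105 and its product p50, was at 12.7 and 47.4 CPM in LY6D- SCA1low, 45.8 and 77.6 in LY6D- SCA1int, and 58.5 and 89.4 in LY6D- SCA1high cells. In LY6D+ cells it was at 127 and 37.6 CPM at SCA1low, 269 and 289 at SCA1int, and 101 and 157 at SCA1high. Its 2 highest libraries were those of LY6D+ SCA1int cells, and the highest of Nfkbia those of LY6D- SCA1high cells. Relb (chromosome 7, 19606217 to 19629438, minus strand), which encodes the subunit of the noncanonical branch, was at 1.4 and 0.519, 7.67 and 21.0, and 8.29 and 51.7 CPM in LY6D- cells from SCA1low to SCA1high. In LY6D+ cells it was at 70.7 and 80.5, 74.0 and 183, and 0.180 and 38.7 CPM. The LY6D+ SCA1low and SCA1int libraries held the 4 highest values, and the pair of LY6D+ SCA1high libraries differed, with 4 and 329 counts. Nfkb2 (chromosome 19, 46304320 to 46312385, plus strand), which encodes p100 and its product p52, had 790 counts in LY6D- SCA1int replicate 2 and 2 in replicate 1. It had 246 counts in LY6D+ SCA1low replicate 1, 90 and 149 in the LY6D- SCA1high libraries, and 59 at most in any other library. Its means in LY6D- SCA1int, LY6D+ SCA1low and LY6D+ SCA1high cells therefore rest on 1 library each. The 3′ end of Nfkb2 overlaps Psd on the opposite strand, as parts of Bcl3 and Icam1 overlap antisense genes. Because the strand setting of the counting is not given in the sources used here, reads of such partners cannot be told apart; Psd had 333 counts in the library with 790 of Nfkb2.

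The 3 targets encode proteins that recruit leukocytes. Icam1 (chromosome 9, 21015985 to 21028817, plus strand), the adhesion molecule bound by leukocyte integrins, was at 2.58 and 7.27 CPM in LY6D- SCA1low, 39.5 and 50.4 in LY6D- SCA1int, and 61.4 and 61.5 in LY6D- SCA1high cells. In LY6D+ cells it was at 0.613 and 11.4, 5.50 and 55.3, and 57.7 and 44.3 CPM. Both SCA1high populations exceeded the SCA1low population of the same LY6D state without overlap. Cxcl1 (chromosome 5, 90891241 to 90893115, plus strand), a neutrophil chemokine, was at 10.9 and 37.9, 66.6 and 73.0, and 277 and 205 CPM in LY6D- cells from SCA1low to SCA1high. In LY6D+ cells it was at 16.9 and 182, 23.4 and 126, and 43.9 and 46.7 CPM. As with Nfkbia, the LY6D- libraries climbed step by step without overlap, and the LY6D+ libraries did not. Cxcl2 (chromosome 5, 90903871 to 90905938, plus strand), a second neutrophil chemokine, was highest in LY6D- SCA1high cells at 47.8 and 39.2 CPM. Its other values ran from 1.18 to 7.96 CPM in the 4 other LY6D- libraries and from 0.118 to 29.0 CPM in the 6 LY6D+ libraries. The LY6D+ SCA1high pair, 645 and 1 counts, marks the limit of what 2 libraries can show for it.

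Between LY6D states, the sign of the difference turned with SCA1 for several of the genes. Nfkbia was higher in LY6D+ than in LY6D- cells at SCA1low (log2 fold change 0.93 ± 0.28, SE), slightly lower at SCA1int (-0.27 ± 0.27) and lower at SCA1high (-1.55 ± 0.28). At each level both libraries of 1 state lay beyond both of the other. Cxcl1 went the same way, with 2.03 ± 1.04, 0.10 ± 1.0 and -2.41 ± 1.05, but its libraries overlapped at SCA1low and SCA1int. Relb went from 6.30 ± 1.88 through 3.16 ± 1.61 to -0.63 ± 1.49. Nfkb1 (1.46 ± 0.85, 2.18 ± 0.87 and 0.80 ± 0.84) was above 0 at every level and Bcl3 (-2.33 ± 2.05, -4.43 ± 2.25 and -2.51 ± 2.06) below 0 at every level. Icam1 stayed within 1 SE of 0, at 0.29 ± 1.56, -0.56 ± 1.56 and -0.27 ± 1.55. Both LY6D+ libraries lay above both LY6D- libraries for 4 of the 10 genes at SCA1low (22.8% of all tested genes), 3 at SCA1int (19.4%) and 1 at SCA1high (15.3%). They lay below for 2 (20.5%), 3 (17.3%) and 7 (21.6%) genes. The median log2 fold change was 1.14 at SCA1low, against 0.20 over all 15270 tested genes, and -1.56 at SCA1high, against -0.11. Without Tnfaip3 these medians were 1.36 and -1.55. Single libraries decided the distance from all genes. The median at SCA1low was 0.21 without LY6D+ SCA1low replicate 2, against -5.13e-15 over all genes then. Without LY6D- SCA1low replicate 1 it was 0.415, against 0.421 over all genes then. Without LY6D- SCA1low replicate 2 it was 1.94 (0.63 over all genes), and without LY6D+ SCA1high replicate 1 the median at SCA1high was -1.9 (-1.55 over all genes). Since the LY6D contrast chose the genes, nothing is read from these counts. Without LY6D+ SCA1low replicate 2 the log2 fold change at SCA1low was -2.84 for Icam1 and -0.38 for Cxcl1. Without LY6D- SCA1low replicate 1 it was -0.50 for Icam1, and without LY6D- SCA1low replicate 2 it was 0.67 for Cxcl2, which stood at -1.21 with all libraries.

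**Figure D2:**
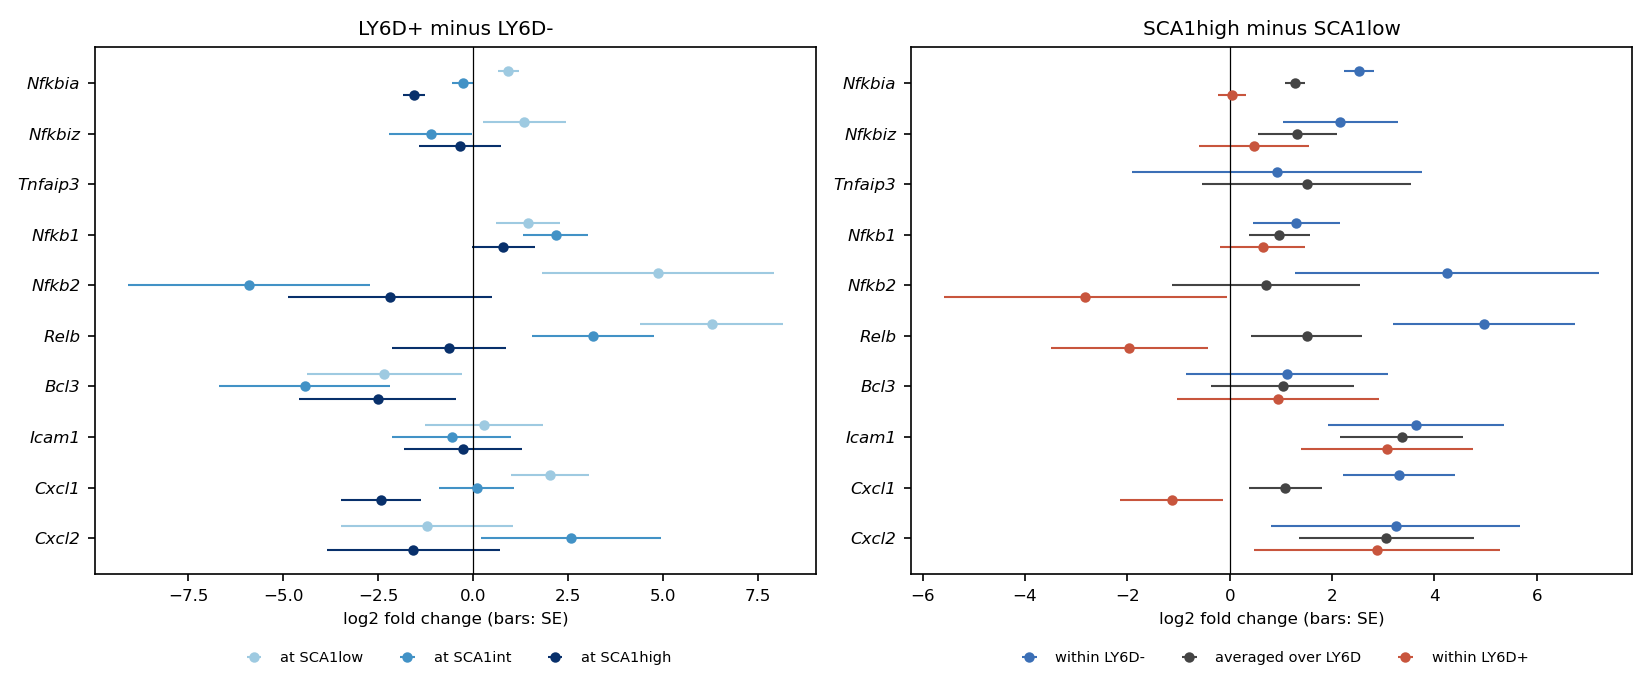
Fitted log2 fold changes with SE bars: LY6D+ minus LY6D- at each SCA1 level on the left, and SCA1high minus SCA1low within LY6D-, averaged over LY6D and within LY6D+ on the right. Nfkbia moves from 0.93 through -0.27 to -1.55 on the left with short bars; Tnfaip3 is left out on the left and within LY6D+, where it had few counts.

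The SCA1 comparison averaged over both LY6D states is another contrast than the LY6D one that chose the genes, and it was tested. It uses the same 12 libraries, so for Nfkbia its p is not independent of that choice. Nfkbia rose in SCA1high against SCA1low cells by a log2 fold change of 1.28 ± 0.20 (SE; adjusted p = 0.000184, edgeR quasi-likelihood test, Benjamini-Hochberg). It was the only gene of the 10 called at an adjusted p below 0.05, where 1.21% of all tested genes were called. The others did not pass. Icam1 came nearest, at 3.36 ± 1.20 (adjusted p = 0.251, same test). Cxcl2 was at 3.06 ± 1.71, Relb at 1.5 ± 1.08, Tnfaip3 at 1.5 ± 2.05, Nfkbiz at 1.32 ± 0.77, Cxcl1 at 1.08 ± 0.71, Bcl3 at 1.03 ± 1.40, Nfkb1 at 0.97 ± 0.59 and Nfkb2 at 0.71 ± 1.83. All 10 fitted folds were above 0 (53.6% of all tested genes), with a median of 1.3 against 0.15 over all tested genes. That count was 6 without LY6D+ SCA1high replicate 1, when Tnfaip3, Nfkb2, Bcl3 and Cxcl2 were below 0, and 9 without LY6D+ SCA1high replicate 2, when Relb was at -1.96. Icam1 and Nfkbiz were higher at SCA1high without overlap in both LY6D states, as were 4.39% of all tested genes. The Nfkbia call ended with DESeq2 (1.02 ± 0.45, adjusted p = 0.136) and in a model without interaction between LY6D and SCA1 (1.28 ± 0.34, adjusted p = 0.0899, edgeR). DESeq2 called Icam1 in its place (3.10 ± 0.95, adjusted p = 0.0199).

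For Nfkbia the log2 fold change of SCA1high over SCA1low was 2.52 ± 0.29 within LY6D- and 0.04 ± 0.27 within LY6D+ cells. Their difference restates the pattern that chose the genes and was not tested. Within LY6D- cells all 10 folds were above 0 (58.1% of all tested genes), from 0.93 for Tnfaip3 to 4.96 for Relb. Their median was 2.88, against 0.53 over all tested genes, and 9 genes did not overlap (22.7% of all tested genes were higher in this way). Changes with SCA1 inside a LY6D state are part of the pattern that chose the list, so nothing is read from the counts within either state. Within LY6D+ cells 7 of the 10 folds were above 0 (45.5% of all tested genes), with a median of 0.56 against -0.17 over all tested genes. Without Tnfaip3 they were Icam1 (3.08 ± 1.68), Cxcl2 (2.88 ± 2.40), Bcl3 (0.94 ± 1.97), Nfkb1 (0.64 ± 0.83), Nfkbiz (0.47 ± 1.08) and Nfkbia. Below 0 were Cxcl1 (-1.14 ± 1.01), Relb (-1.96 ± 1.54) and Nfkb2 (-2.82 ± 2.76). There 2 genes were higher without overlap (13.1% of all tested genes) and 1 was lower (21.3%). The step from SCA1low to SCA1int called none of the 10 (0.334% of all tested genes). It gave 0.59 ± 0.20 for Nfkbia (adjusted p = 0.424, edgeR), 1.40 ± 0.60 for Nfkb1, 2.33 ± 1.11 for Relb and 2.76 ± 1.17 for Icam1. These 4 genes are named for an unadjusted p under 0.05 in edgeR. The share of all tested genes under that cut is not given here, so nothing is read from their number. The step from SCA1int to SCA1high also called none (0.138% of all tested genes), and Nfkbia, at 0.69 ± 0.20 (adjusted p = 0.409, edgeR), was the 1 gene with an unadjusted p under 0.05. DESeq2 called 0 in both steps. Without LY6D- SCA1low replicate 2, edgeR called Nfkbia in that last step (0.67, adjusted p = 0.0414).

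The 10.5% share bore on the counts of several of the 10 genes in LY6D- SCA1low replicate 2. After it and the smaller ones were subtracted from all libraries, its Nfkbia value went from 715 to 216 CPM, its Cxcl1 count from 438 to 0 and its Icam1 count from 84 to 0. Counts that fell below 0 were set to 0, so these zeros mark a floor and not a measured absence in LY6D- SCA1low replicate 2. The other 11 libraries kept between 890 and 3623 CPM of Nfkbia, apart from 489 in LY6D- SCA1low replicate 1. The SCA1high against SCA1low log2 fold change of Nfkbia was then 1.58 ± 0.22 (adjusted p = 0.00019, edgeR), and its LY6D folds were 1.47 ± 0.31, -0.27 ± 0.30 and -1.67 ± 0.31 from SCA1low to SCA1high. The order of the Nfkbia populations at both ends was the same as before, and LY6D- SCA1low lay further down. Bcl3 there went from 124 to 9 counts, 0.779 CPM, below both LY6D+ SCA1low libraries (7.89 and 1.01 CPM), so the LY6D states then overlapped at SCA1low. The LY6D log2 fold change of Cxcl1 at SCA1low went from 2.03 to 4.52 ± 1.63, and that of Icam1 from 0.29 to 2.56 ± 2.10. Both rest in part on the counts set to 0.

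**Figure D3:**
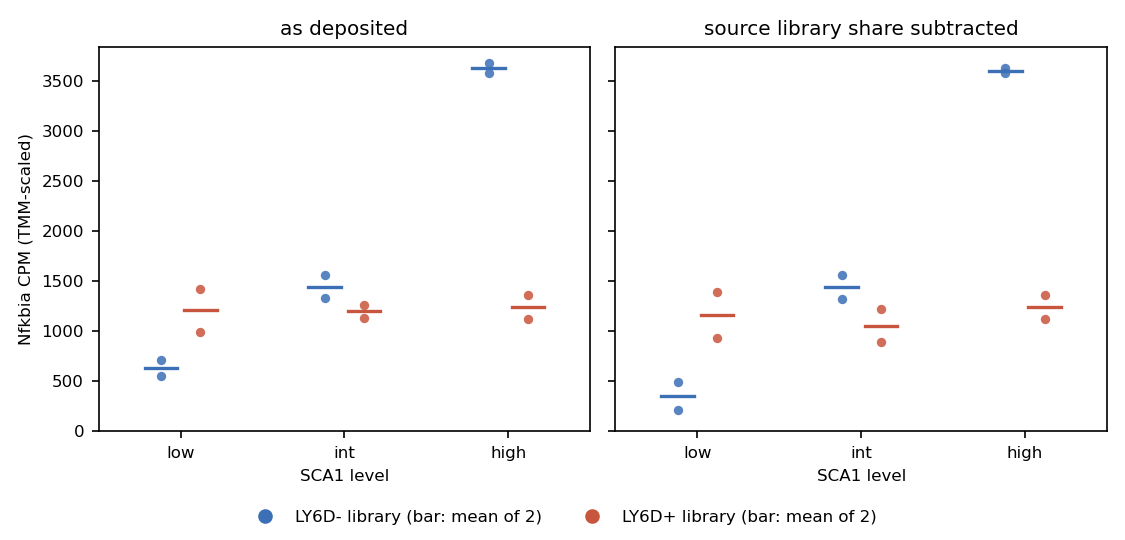
Nfkbia CPM in each library by SCA1 level, from the counts as deposited (left) and after the share of each source library was subtracted (right); bars are means of 2. LY6D- SCA1low replicate 2 moves from 715 to 216 CPM, and the LY6D- SCA1high libraries stay at 3572 and 3623.

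Nfkbia and the endothelial markers stood in the same order in LY6D- cells. The endothelial list summed to 336 to 728 CPM in LY6D- SCA1low, 1100 to 1516 in LY6D- SCA1int and 3664 to 4206 in LY6D- SCA1high cells, and to 17.8 to 464 in the LY6D+ libraries. Pecam1, which encodes CD31, was at 573 and 401 CPM in LY6D- SCA1high and at 28.6 and 69.3 in LY6D- SCA1low cells. None of the 12 endothelial genes was at 0 in all libraries, and Cdh5 was at 0 in 1. The 13 immediate early and heat shock genes, which can rise with handling or stress, summed to 9141 to 9200 CPM in LY6D- SCA1high cells. Their sums were 6997 to 8357 CPM in LY6D- SCA1low, 10910 to 12520 in LY6D- SCA1int and 13500 to 19290 in LY6D+ libraries. Single genes differed: in LY6D- SCA1high replicate 2, Fos had its highest value (1279 CPM) and Egr1 its lowest (1588 CPM). The luminal sum ran the other way in LY6D- cells, from 42630 to 83440 CPM at SCA1low to 2510 to 4419 at SCA1high. Spink1 made up most of it, with 71400 and 34790 CPM at SCA1low and 1792 and 3504 at SCA1high. Epcam, Krt19 and Cd24a overlapped between these levels. The 14 leukocyte markers summed to 12.4 to 17.6 CPM in LY6D- SCA1high cells, and Cd3e was at 0 in all 12 libraries. The part of these cell types, or of handling, in the Nfkbia values was not tested.

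**Figure D4:**
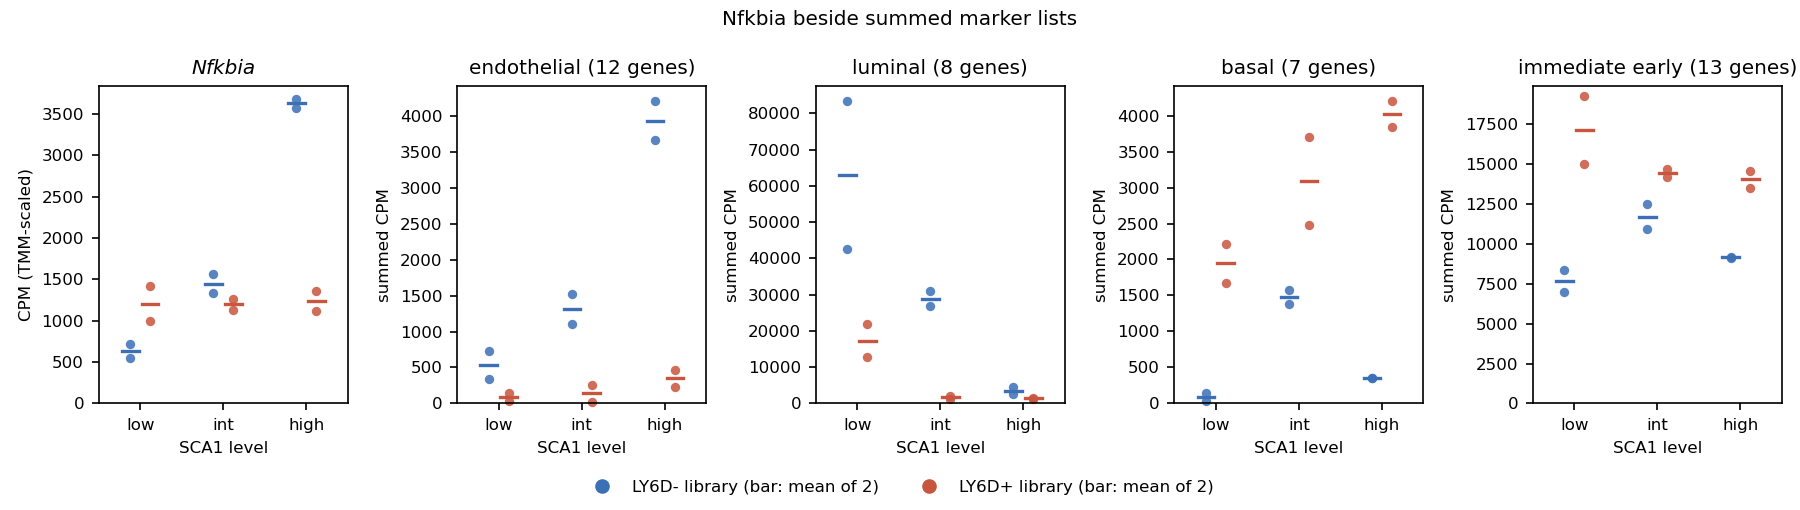
Nfkbia CPM and the summed CPM of 4 marker lists in each library by SCA1 level, LY6D- in blue and LY6D+ in red, with bars for the mean of 2. The endothelial sum, like Nfkbia, is highest in LY6D- SCA1high (3664 to 4206 CPM), whereas the luminal sum is highest in LY6D- SCA1low, where it is mostly Spink1.

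The rest of the pathway was read from a list of 116 receptors, ligands, signalling proteins, other subunits and inhibitors, and other targets, of which 92 were tested. In SCA1high against SCA1low cells 3 rose and none fell in edgeR (0.432% and 0.779% of all tested genes were called higher and lower). The median log2 fold change was 1.19, against 0.15 over all tested genes. DESeq2 called 11, where it called 1290 over all genes and edgeR 185. All 3 were targets: Ier3, a stress-induced survival gene (1.36 ± 0.21, adjusted p = 0.000254), Selp, the endothelial and platelet adhesion molecule P-selectin (3.04 ± 0.71, adjusted p = 0.0208), and Irf1, an interferon-response transcription factor (1.62 ± 0.38, adjusted p = 0.0214, edgeR). DESeq2 did not call Ier3 (adjusted p = 0.0995) or Irf1 (adjusted p = 0.125), and neither passed in the edgeR model without interaction (adjusted p = 0.0703 and 0.22). Selp and Irf1 were lost with RLE scaling in edgeR (adjusted p = 0.056 and 0.081) and with limma (adjusted p = 0.232 and 0.12). The Irf1 call was also lost without LY6D+ SCA1high replicate 2 (1.19) or LY6D- SCA1low replicate 1 (1.17). None of 16 receptors and ligands, 31 signalling genes or 16 subunits and inhibitors was called by edgeR.

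Averaged over SCA1, 7 of the 92 pathway genes differed with LY6D, and in LY6D+ cells 3 of them were higher and 4 lower (1.27% and 1.21% of all tested genes). The median was -0.32, against 0.03 over all tested genes. Those that rose were Lcn2, an iron-sequestering antibacterial protein (5.68 ± 1.01, adjusted p = 0.00109), Ier3 (0.75 ± 0.17, adjusted p = 0.0153) and Lif, a cytokine of the interleukin-6 family (6.45 ± 1.74, adjusted p = 0.0427, edgeR). From SCA1low to SCA1high, the mean CPM of Lcn2 was 0.302, 8.89 and 0.792 without LY6D and 104, 41.2 and 70.0 with it. The Lif call was lost without any 1 of the 6 LY6D- libraries, LY6D+ SCA1high replicate 1 or LY6D+ SCA1low replicate 2 (4.27 to 8.18, adjusted p up to 0.152, edgeR), and in 14 of 23 alternatives in all. Those that fell were Sele, or E-selectin (-5.71 ± 0.84, adjusted p = 8.7e-05), Selp (-3.54 ± 0.59, adjusted p = 0.000533), the vascular adhesion molecule Vcam1 (-3.29 ± 0.72, adjusted p = 0.00953) and Irf1 (-1.35 ± 0.31, adjusted p = 0.0133, edgeR). The Ier3 call was lost with RLE scaling in edgeR (adjusted p = 0.0503), DESeq2 (adjusted p = 0.271) and the edgeR model without interaction (adjusted p = 0.183). The Irf1 call was lost with limma (adjusted p = 0.0856) and in the edgeR model without interaction (adjusted p = 0.0926), and the Vcam1 call was lost without LY6D- SCA1high replicate 2 (-3.08, adjusted p = 0.0781, edgeR). Selp averaged 617 ± 162 CPM and Vcam1 383 ± 232 in LY6D- SCA1high cells, against 46.6 ± 43.0 and 17.9 ± 22.8 in LY6D+ SCA1high cells (SD, n = 2). These selectins and Vcam1 are genes of activated endothelium and stood highest where the endothelial list did; its part in their folds was not tested. Irf1, like Nfkbia, had its highest mean in LY6D- SCA1high cells. From SCA1low to SCA1high its mean CPM was 179, 530 and 1200 without LY6D and 178, 156 and 249 with it.

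Over the 12 libraries, the genes whose log2 CPM most resembled that of Nfkbia among 4963 ranked genes were Adamts1 (Pearson's r = 0.92), Piezo1 (0.91), Fosl2 (0.90), Sparc (0.90), Cavin1 (0.90), Cnn3 (0.88), Polr2b (0.87) and Ifitm3 (0.87). By rank (Spearman's rho), Piezo1 was at 0.965 and the rest of these lay lower, from 0.664 for Fosl2 to 0.755 for Adamts1. Adamts1, a secreted protease, averaged 95.5, 306 and 1003 CPM in LY6D- cells and 151, 237 and 312 in LY6D+ cells from SCA1low to SCA1high. Fosl2, a subunit of the AP-1 transcription factor, averaged 93.6, 264 and 666 CPM without LY6D and 199, 334 and 327 with it. Both peaked in LY6D- SCA1high cells. Of the listed genes themselves, Cxcl1 (0.81), Nfkbiz (0.69) and Icam1 (0.60) followed Nfkbia most closely, while Nfkb1 (0.24), Tnfaip3 (0.23) and Bcl3 (0.23) did so least. Among other pairs, Icam1 and Cxcl1 ran together (0.73), as did Nfkb1 and Relb (0.53), and Bcl3 ran against both Nfkb1 (-0.60) and Relb (-0.57). These are descriptions over 12 libraries in which pairs share a population.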

How the data were processed

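RNA from 12 libraries of sorted prostate cells was read as 3′ tags (QuantSeq FWD), so a count depends little on transcript length. The submitters' processing notes name mm10, STAR 2.5.1, cutadapt 1.9.1, Picard 1.96, SAMtools 1.3.1, Subread, featureCounts and edgeR. Settings, annotation and strand setting were not given in the sources used. The authors deposited raw counts for 48795 Ensembl identifiers and a normalised signal table. The deposited signal equals the count divided by 1 factor per library, within a relative 5.2e-15. It served 1 alternative, limma 3.58.1 on log2 of the signal plus 1.

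Counts were tested in R 4.3.3 with edgeR 4.0.16 (TMM factors, filterByExpr by population, 1 mean per population, glmQLFit and glmQLFTest). This tested 15270 genes with 6 residual degrees of freedom and a biological coefficient of variation of 1.28. Genes were called at a Benjamini-Hochberg adjusted p below 0.05. The SE of an edgeR fold is the absolute log2 fold change divided by the square root of the quasi-likelihood F statistic. Where no p is given, this SE serves as a description. The test was checked on simulated counts. GENCODE M21 (GRCm38) gave the coordinates and RefSeq the promoters. Symbols were matched for 48349 identifiers.

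The genes and lists were chosen with earlier results of these data known. Named are all 10 genes, up to 4 called pathway genes per direction, and the 8 genes most correlated with Nfkbia where mean log2 CPM reached 3 (prior count 1). Genes at least 20 times higher in a source library gave the shares between libraries. Shares of at least 1% were subtracted in 12 ordered pairs, an alternative chosen in part after seeing the data. Other alternatives were RLE or library-size scaling, no filter, DESeq2 1.42.0, a replicate block, each library left out, LY6D- SCA1low replicate 2 and LY6D+ SCA1high replicate 2 left out together, a model without interaction, and ribosomal features left out.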

Additional observations from a re-analysis of the deposited data

Results flagged for a closer look

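For 4 of the 10 genes, both LY6D+ libraries lay above both LY6D- libraries at 1 SCA1 level and below them at another, as for 11.3% of all 15270 tested genes; since the LY6D contrast chose the list, nothing is read from this count. The log2 fold changes (± SE) were 0.933 ± 0.28, -0.27 ± 0.27 and -1.55 ± 0.28 for Nfkbia at SCA1low, SCA1int and SCA1high. They were 1.36 ± 1.10 at SCA1low and -1.11 ± 1.09 at SCA1int for Nfkbiz, 4.88 ± 3.06 at SCA1low and -2.19 ± 2.70 at SCA1high for Nfkb2, and 2.58 ± 2.37 at SCA1int and -1.58 ± 2.28 at SCA1high for Cxcl2. The folds of Nfkb2 and Cxcl2 at SCA1high lay within 1 SE of 0. The differences between these folds were not tested, because the list was chosen for such a pattern.

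Among the pathway genes outside the list, the change of Ier3 from SCA1low to SCA1high differed between LY6D- and LY6D+ cells (adjusted p of the interaction = 0.0284, edgeR quasi-likelihood test, Benjamini-Hochberg). Ier3 averaged 362 and 2062 CPM in LY6D- SCA1low and SCA1high cells, and 1437 and 1656 CPM in LY6D+ SCA1low and SCA1high cells.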

How the results depend on the processing

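Nfkbia in SCA1high against SCA1low cells had a log2 fold change from 1.01 to 1.75 over 23 alternatives and from 1.08 to 1.35 with 1 library left out. The call was lost with DESeq2 (adjusted p = 0.136) and in the edgeR model without interaction (adjusted p = 0.0899). Because values of Nfkbia chose the list, its p in this comparison is not independent of that choice in any alternative. The number of the 10 genes called there went from 1 to 0 in the model without interaction, and at the SCA1low to SCA1int step from 0 to 1 with library size only. With 1 library left out the number was 1 to 1, 0 to 0 and 0 to 1 for SCA1high against SCA1low, SCA1int against SCA1low and SCA1high against SCA1int. Folds of SCA1high against SCA1low that turned below 0 were Nfkb2 in the model without interaction (-1.68) and Relb with both named libraries left out (-2.1) and in limma (-0.0837). With 1 library left out, Tnfaip3 ran from -0.753 to 2.67, Nfkb2 from -0.571 to 1.87, Relb from -1.96 to 2.01, Bcl3 from -0.336 to 1.87 and Cxcl2 from -0.358 to 3.91; the cause was not tested.

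Of the pathway genes, 3 were called in SCA1high against SCA1low cells, but 1 with RLE, limma or the model without interaction, 5 with both named libraries left out, 6 with library size only, 11 with DESeq2 and 2 to 4 with 1 library left out. For LY6D, the 7 became 15 with DESeq2, 4 without interaction and 5 to 7 with 1 library left out.

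Over all genes, the SCA1high against SCA1low calls (185; 66 higher, 119 lower) became 1290 with DESeq2, 121 with limma and 185 to 304 with 1 library left out, and split 35 higher to 157 lower with RLE but 184 higher to 77 lower with library size only. SCA1int against SCA1low (51) became 816 with DESeq2, 138 with both libraries left out, 29 with limma, 25 without interaction and 47 to 125 with 1 library left out. SCA1high against SCA1int (21) became 62 with no filter, 720 with DESeq2, 53 with both libraries left out, 8 with limma, 9 without interaction and 33 to 70 with 1 library left out. LY6D (379; 194 higher, 185 lower) became 2394 with DESeq2, 218 with limma, 145 without interaction, 247 with the share subtracted from LY6D- SCA1low, 195 with it subtracted from all libraries and 286 to 492 with 1 library left out, and split 106 to 190 with RLE. The median log2 fold change of all genes in SCA1high against SCA1low was 0.15 with TMM, -0.12 with RLE and 0.63 with library size only.

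In the sample descriptions the libraries of each replicate number share a prefix whose meaning is not stated. Over 15 pairs of populations, the deviations of same-numbered libraries correlated at -0.301 to 0.235, above 0.1 in 2. With the number as a replicate block Nfkbia was at 1.29 (adjusted p = 1.52e-05, edgeR), and the block ended no call of a named gene. The SCA1high against SCA1low calls over all genes became 245, within 1.5 times of the 185, but those higher went from 66 to 107. With 2 libraries a population and few counts of Tnfaip3, Nfkb2 and Cxcl2, differences in these genes were not detectable unless large.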
